A study of Mus musculus with 7 samples.

Results

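The genes described here make ribosomes and start translation, and they were read in germinal centre B cells with and without R-Ras2. The list holds 36 genes. A gene counted as a member when a probe of the array carried its symbol and no other, and where it had several, the probe with the highest mean intensity was taken. On that rule 34 of the 36 were measured, all 34 were bright enough to be tested, and they stood among 16136 tested genes. Fbl and Eif2s1 had no probe of their own and were not analysed here.

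The series asked how messenger RNA differs when germinal centre B cells have no R-Ras2, a RAS-related small GTPase. Mice were given sheep red blood cells into the peritoneum, and 7 days later splenic B cells positive for B220, CD95 and GL7 were isolated on a sorter. Wild-type (WT) mice gave 4 arrays and RRas2-deficient mice 3, and the labels name them biological replicates. The immunization is shared by both groups, and the strain, the age, the kind of allele and the cells in which it is missing are not given in the sources used here. A sample text of the deficient arrays writes Rras, while their titles and genotype write RRas2. Where animals are not named, p-values measure only the spread between these samples.

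Ribosomes are built in the nucleolus. RNA polymerase I copies the ribosomal DNA, small nucleolar ribonucleoproteins (snoRNPs) modify and fold the transcript, and assembly factors turn it into the small and the large subunit. Initiation factors then place finished ribosomes on messenger RNA. The transcription factor MYC raises many of these genes in dividing lymphocytes, including the germinal centre B cells chosen for another round of division.

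The promoters of some members carry CACGTG, the palindromic E-box that MYC and its partner MAX can bind. It is the same on both strands. RefSeq promoter windows (mouse build GRCm38.p6), from 250 bases before to 50 after a start, were given for 30 of the 36 members. The motif was in the windows of 9 of these (30.0%), against 8.09% of 27025 genes with a window, coding or not. Genes can have several windows, and 7.15% of all 32851 windows held it. In Pes1, Wdr43, Utp20 and Mybbp1a the match began 3, 18, 38 and 41 bases into the transcript, counted from 1. In the other 5 the match nearest to a start lay before it, and these are shown because their genes span the roles below, from subunit assembly to initiation. Eif4e had a second match in the same window and Eif5a had matches in 3 of its 6 windows, and 1 is shown for each. Each is 5′ to 3′ on the gene's strand with the motif in capitals.
Nop2, chr6:125131796-125131855, plus strand, 60 bases before the start: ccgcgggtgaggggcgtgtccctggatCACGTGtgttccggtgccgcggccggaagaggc
Ran, chr5:129020011-129020070, plus strand, 118 bases before: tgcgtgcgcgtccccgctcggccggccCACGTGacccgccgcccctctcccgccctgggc
Eif5a, chr11:69921428-69921487, minus strand, 74 bases before: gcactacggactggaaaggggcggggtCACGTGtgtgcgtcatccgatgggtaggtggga
Eif4e, chr3:138527177-138527236, plus strand, 64 bases before: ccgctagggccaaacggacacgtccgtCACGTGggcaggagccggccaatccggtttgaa
Eif4a1, chr11:69672580-69672639, minus strand, 189 bases before: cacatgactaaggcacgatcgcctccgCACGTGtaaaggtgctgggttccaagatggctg
The match is a description of these letters and not evidence of binding. The median log2 difference between genotypes, described next, was -0.16 over the 9 members with the motif and -0.15 over the 20 tested members with a window and no match. With the sets of arrays described below as a block it was -0.33 and -0.22, and this contrast was not tested.

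The arrays differed from each other in a way that cut across genotype, and the members followed it. The interquartile range of all log2 intensities on an array was 2.37 to 2.49 on WT replicates 1 and 2 and RRas2-deficient replicate 2, called narrower here. It was 2.69 to 2.91 on WT replicates 3 and 4 and RRas2-deficient replicates 1 and 3, called wider. WT replicate 3 also stood apart in sex-linked genes. Xist read 6.61 there against 9.43 to 10.29 on the other 6 arrays, and the Y-linked Eif2s3y 6.75 against 3.09 to 4.40. No deficient array read this way, so this trait was not balanced between the genotypes. Its part in the member values was not tested. The Rras2 probe (gene ID 66922) read 7.13, 7.41, 8.66 and 8.39 on WT replicates 1 to 4 and 6.93, 6.68 and 7.12 on RRas2-deficient replicates 1 to 3. That is a log2 difference of -0.99 ± 0.39 (limma SE; adjusted p = 1.00). Permuting the genotypes over all 35 splits of the arrays gave an exact two-sided p of 0.114, the smallest possible being 0.0286.

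Ribosome biogenesis and initiation genes had lower means in the deficient cells in most cases, and no member passed the test. Of the 34 tested, 30 had a lower mean and 4 a higher one, against 48.3% of all tested genes with a lower mean. Their median log2 difference (RRas2-deficient minus WT) was -0.15, against 0.00 for all tested genes. By limma with Benjamini-Hochberg adjustment over all 16136 genes, 0 members passed an adjusted p of 0.05, where 0.0124% of all genes did (2 genes). At an unadjusted p under 0.05 there was 1 member, Rrs1, against 0.818% of all genes.

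The mean log2 intensity of the 34 members was 7.29, 7.39, 8.16 and 7.81 on WT replicates 1 to 4 and 7.67, 7.14 and 7.75 on RRas2-deficient replicates 1 to 3. The 3 narrower arrays gave the 3 lowest means and the genotypes overlapped, at 7.66 ± 0.40 (SD, n = 4) against 7.52 ± 0.33 (SD, n = 3). Among all 7, WT replicate 3 was the highest and RRas2-deficient replicate 2 the lowest. WT replicate 3 was the highest array for 29 of 34 members, against 26.5% of all tested genes. RRas2-deficient replicate 2 was the lowest for 20 of 34, against 18.6%. Without WT replicate 3 only 15 of 34 members had a lower mean (41.8% of all genes did) and their median difference was 0.03. Without RRas2-deficient replicate 2 it was 12 of 34 (46.0% of all genes) and 0.07.

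**Figure D1:**
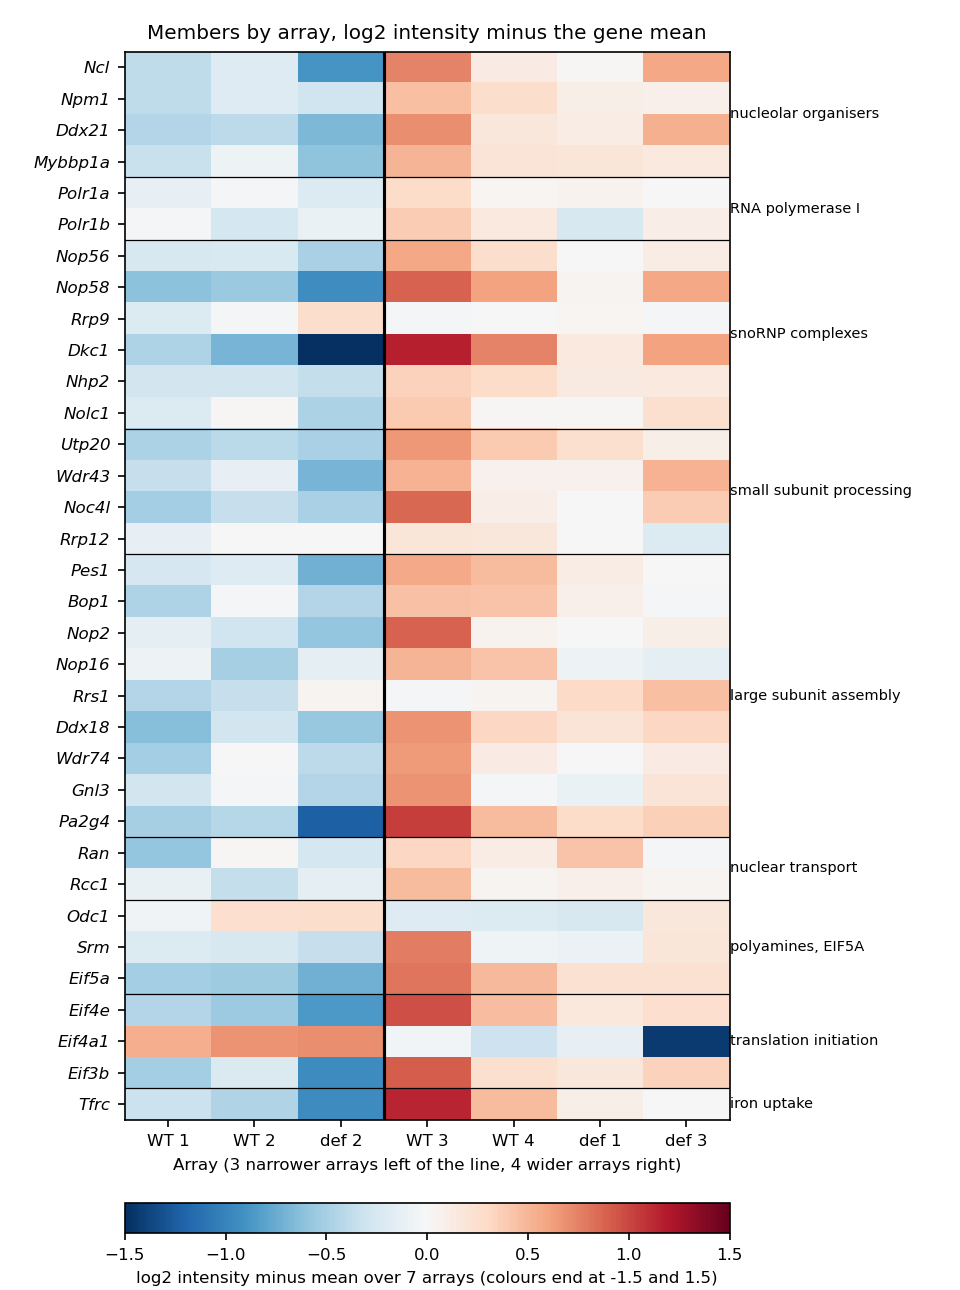
Log2 intensity of each of the 34 tested members on each array, minus that gene's mean over the 7 arrays, with rows grouped by role, WT written as WT and RRas2-deficient as def. The 3 narrower arrays are left of the line and the 4 wider ones right of it; 22 members read higher on every wider array than on every narrower one, and Eif4a1 ran the other way.

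In 22 of 34 members all 4 wider arrays read above all 3 narrower ones, against 26.9% of all tested genes. The median size of this step over the members was 0.65 in WT and 0.58 in deficient cells, against -0.01 and 0.00 over all tested genes. It was 1.54 and 1.88 for Dkc1, the pseudouridine synthase of snoRNPs, in WT and deficient cells, and 1.33 and 1.25 for Nop58, a core protein of the methylating snoRNPs. The step is a description. The sets were parted by spread, and a gene brighter than an array's median tends to read higher where the spread is wider. The members' means per array were 7.14 to 8.16 against array medians of 4.34 to 4.54, and the shares of all tested genes are not from genes of like brightness.

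Most markers of cell state also differed between the sets. The mean of 13 tested proliferation genes was 8.06 to 8.27 in the narrower set and 8.99 to 9.57 in the wider set. The mean of 9 of 12 listed germinal centre B cell markers was 8.51 to 8.68 and 9.46 to 9.87. In 8 of these 9 all wider arrays read above all narrower ones, the exception being Basp1 at 8.01 to 8.20 over all arrays. The widest step was that of Rgs13, which read 5.86 to 6.44 in the narrower set and 8.59 to 9.59 in the wider set. Follicular and naive B cell markers ran the other way, with a mean over 5 of 8 genes of 8.03 to 8.58 and 6.88 to 7.50. In 3 of these 5, Ccr7, Klf2 and Gpr183, all wider arrays read below all narrower ones, while Cd55 and Fcer2a overlapped. The widest step was that of Ccr7, the receptor that draws B cells towards the T cell zone, which read 8.07 to 9.10 on the narrower and 5.81 to 6.67 on the wider arrays. Immediate early genes (13 of 13), which respond to stimulation or dissociation within minutes, had means of 7.77 to 8.16 and 6.34 to 7.24. Over all 7 arrays the means of genes of other cell types were 6.47 to 7.15 for 8 of 9 plasma cell genes and 3.89 to 4.53 for 9 of 10 T cell genes. They were 4.63 to 5.17 for 12 of 14 genes of monocytes, macrophages and dendritic cells and 4.26 to 4.65 for 3 of 10 erythroid genes. Among the defining germinal centre genes Bcl6 read 9.07 to 10.02 and S1pr2 7.42 to 9.36. The part of these lists in the member values was not tested. In sorted cells, fewer cells of a type and less RNA per cell cannot be told apart.

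**Figure D2:**
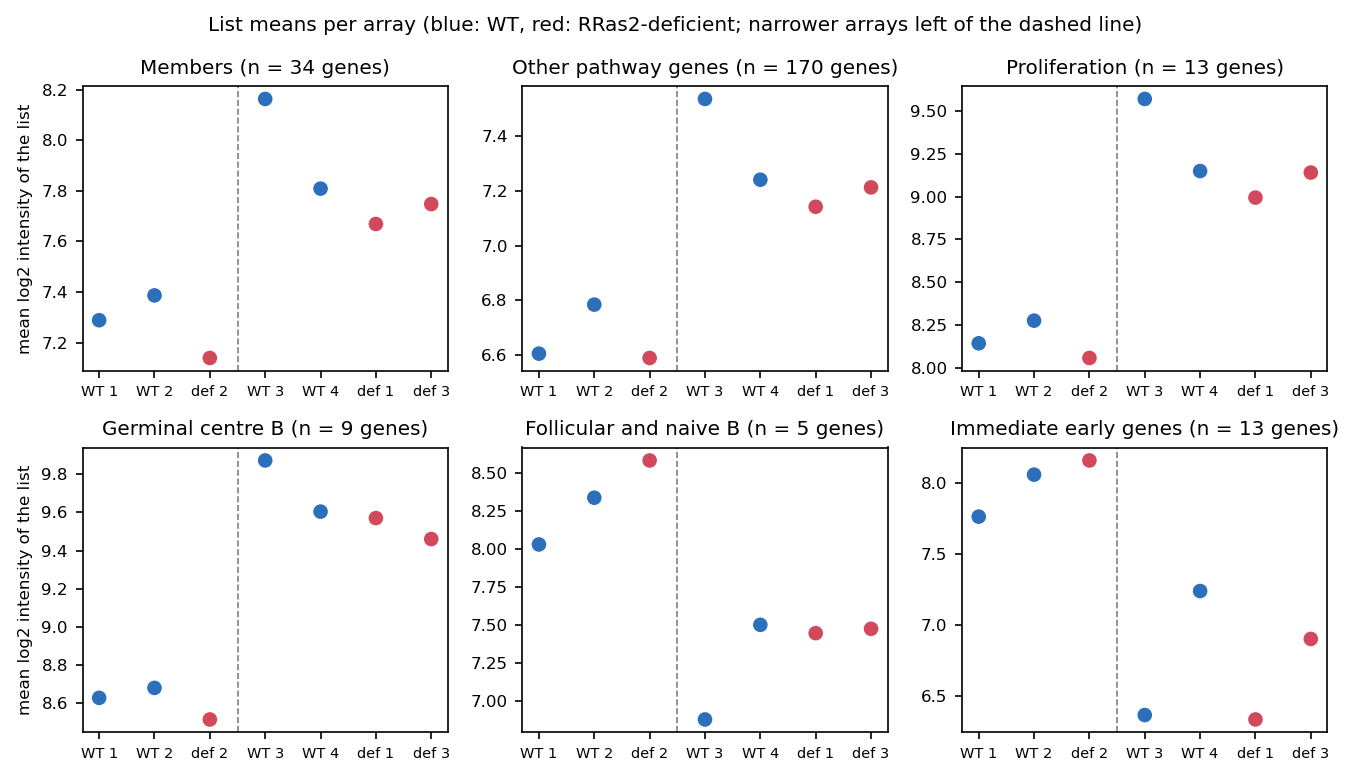
Mean log2 intensity per array of the members, of the other genes of the same pathways and of 4 marker lists (y axis; n is the number of tested genes), with narrower arrays left of the dashed line, WT in blue and RRas2-deficient in red. The members, proliferation genes and germinal centre markers were lower on the 3 narrower arrays, and follicular and naive B cell markers and immediate early genes were higher there.

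Each set holds both genotypes, so a second fit took the set as a block. The sets were cut from these same intensities, and the fit takes them as known. Its SEs and p-values do not allow for that and may be too small. The block kept 30 of 34 members lower, against 50.9% of all tested genes, with a median of -0.24 against 0.00. No member passed an adjusted p of 0.05, where 0.0124% of all genes did, and the lowest adjusted p by limma was 0.275, for Pes1. At an unadjusted p under 0.05 there were 11 members, against 10.1% of all genes. Of these 10 were lower (6.24% of all genes) and 1 was higher (3.89%). The proliferation genes were lower too with the block, all 13 of 13 with a median of -0.25 and 0 past the threshold, where 10 of 13 were lower without it. In the same fit 8 of 9 germinal centre markers (median -0.16) and 8 of 8 plasma cell genes (-0.30) were lower. Of the follicular and naive B cell markers 0 of 5 (0.32) were. The plasma cell genes were all lower without the block too, with a median of -0.22. With the block 7 of 9 T cell genes (-0.07) and 7 of 13 immediate early genes (-0.07) were lower. So were 2 of 12 genes of monocytes, macrophages and dendritic cells (0.15) and 1 of 3 erythroid genes (0.12). None of these lists had a gene past the threshold, and their part in the member values was not tested. With the block and each array left out in turn, 28 to 31 of 34 members were lower and the median lay between -0.34 and -0.13. A covariate of each array's interquartile range, used instead of the block, gave 26 of 34 lower, against 45.3% of all genes, and a median of -0.10. In that fit 0 members passed (0.0124% of all genes did) and 3 had an unadjusted limma p under 0.05, against 4.7% of all genes. The same covariate gave 6 of 13 proliferation genes lower (median 0.02) and 3 of 9 germinal centre markers (0.07). It gave 8 of 8 plasma cell genes (-0.19) and 2 of 5 follicular and naive B cell markers (0.13) lower. With the covariate 12 of 13 immediate early genes (-0.34) and 8 of 9 T cell genes (-0.14) were lower. So were 2 of 12 genes of monocytes, macrophages and dendritic cells (0.12) and 1 of 3 erythroid genes (0.09). The direction of the proliferation and germinal centre lists thus depended on which adjustment was used. The count of immediate early genes that were lower depended on it too.

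Within each set most members also read lower in the deficient cells. Spread still differed by genotype within the wider set, which the block does not take up. The interquartile range was 2.91 and 2.78 on its WT arrays and 2.73 and 2.69 on its deficient ones. In the narrower set it was 2.37 and 2.49 on WT and 2.40 on the deficient array. The part of spread in the counts below was not tested. The shares of all tested genes are again not from genes of like brightness. Among the 4 wider arrays both deficient ones lay below both WT ones in 18 of 34 members, against 18.5% of all tested genes, and above both in 1, against 14.3%. Among the 3 narrower arrays the deficient one lay below both WT ones in 20 of 34, against 28.6%, and above both in 4, against 33.6%. In 11 members the deficient arrays were lower in both sets, against 7.64% of all tested genes. These 11 were Mybbp1a, Nop56, Nop58, Dkc1, Nhp2, Utp20, Pes1, Pa2g4, Eif5a, Eif4e and Tfrc, and they come from 7 of the 9 roles. For Nop56 this held for its brightest probe and for neither of its dimmer ones. Its second probe overlapped in both sets, with differences of -0.17 in the narrower and -0.01 in the wider. On its dimmest probe the narrower deficient array was above both WT ones, a difference of 0.76. Rrs1 was the 1 member higher in both sets, against 6.7% of all tested genes. Members share arrays and are not independent of each other. Over all 7 arrays 0 members had genotypes that did not overlap, where 0.366% of all genes did so with lower and 0.719% with higher deficient arrays.

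**Figure D3:**
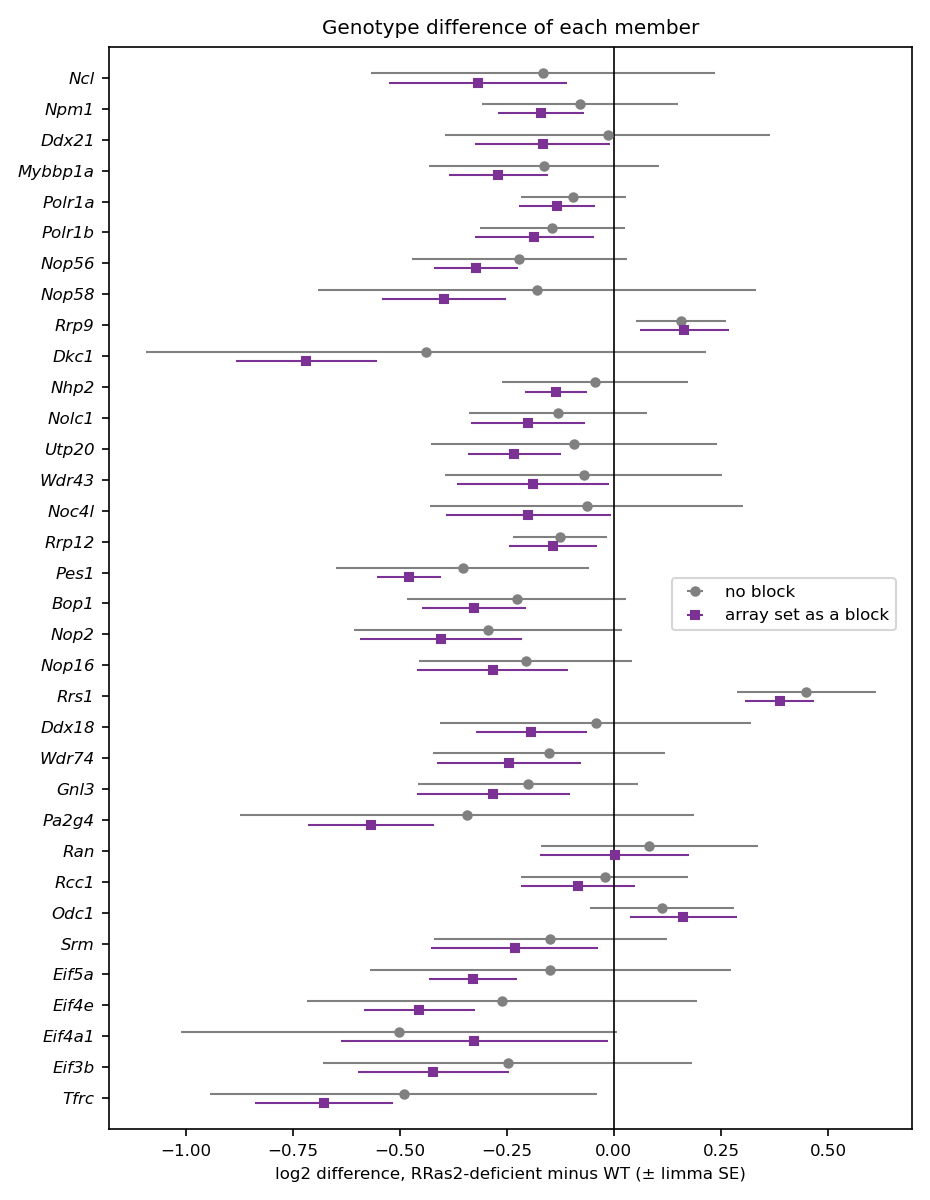
Log2 difference between genotypes (x axis, RRas2-deficient minus WT, with limma's SE) for each of the 34 tested members, without a block (grey circles) and with the array set as a block (purple squares). In both fits 30 members lie left of 0, and the blocked errors are narrower for all 34.

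Among the nucleolar organisers, the abundant proteins that hold the nucleolus together, all 4 had lower deficient means. Mybbp1a (gene ID 18432), a nucleolar MYB-binding protein that takes part in ribosomal RNA synthesis, read 7.97, 8.22, 8.81 and 8.49 on WT replicates 1 to 4 and 8.49, 7.70 and 8.45 on RRas2-deficient replicates 1 to 3. Its deficient array was the lowest in the narrower set, and its deficient arrays sat just under the lower WT array in the wider set. The difference was -0.16 ± 0.27 (SE), and -0.27 ± 0.12 with the block (limma adjusted p = 0.498). Ncl, or nucleolin, differed by -0.17 ± 0.40 and the histone chaperone Npm1 by -0.08 ± 0.23. The only Npm1 probe read 4.71 to 5.55, not far above the array medians of 4.34 to 4.54, which limits what its difference can show. The RNA helicase gene Ddx21 had nearly equal means, at 8.08 ± 0.54 (SD, n = 4) and 8.07 ± 0.62 (SD, n = 3).

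The members of RNA polymerase I had lower deficient means by less than the SDs of their groups, which were 0.14 to 0.27. Polr1a, the gene of the largest subunit, read 6.79, 6.90, 7.19 and 6.94 on the WT arrays and 6.96, 6.71 and 6.91 on the deficient ones. Polr1b, the gene of the second largest subunit, read 6.08, 5.82, 6.47 and 6.23 against 5.85, 5.99 and 6.19. The genotypes overlapped for both. The differences were -0.10 ± 0.12 for Polr1a and -0.14 ± 0.17 for Polr1b, and the step from narrower to wider WT arrays was 0.22 and 0.40.

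In the snoRNPs, which guide methylation and pseudouridylation of ribosomal RNA, 5 of 6 tested members had lower means. Dkc1 (gene ID 245474), or dyskerin, spanned the widest range, at 6.87, 6.64, 8.51 and 8.08 on the WT arrays and 7.49, 5.84 and 7.94 on the deficient ones. In each set its deficient arrays lay below the WT arrays, though over all 7 the genotypes overlapped. Its difference was -0.44 ± 0.65 (SE), and -0.72 ± 0.17 with the block (limma adjusted p = 0.309). Nop56 and Nop58, the paired core proteins of the methylating complexes, differed by -0.22 ± 0.25 and -0.18 ± 0.51, and by -0.32 ± 0.10 and -0.40 ± 0.14 with the block. Nhp2, a partner of dyskerin, differed by -0.04 ± 0.22, and by -0.14 ± 0.07 with the block. The snoRNP chaperone Nolc1 differed by -0.13 ± 0.21, and by -0.20 ± 0.13 with the block.

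Rrp9 (gene ID 27966), the protein that marks the U3 snoRNP, was the exception, with a higher mean in the deficient cells. It read 5.90, 6.08, 6.08 and 6.10 on the WT arrays and 6.13, 6.37 and 6.08 on the deficient ones. RRas2-deficient replicate 2, the lowest array for most other members, was the highest here. The difference was 0.16 ± 0.11 (limma adjusted p = 1.00), and it was 0.38 within the narrower set and 0.02 within the wider one.

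All 4 members that process the small subunit had lower means, with differences of -0.13 to -0.06. Utp20, a large scaffold of the small subunit processome, read 5.72, 5.78, 6.84 and 6.58 on the WT arrays and 6.43, 5.70 and 6.28 on the deficient ones. Its deficient arrays were below the WT arrays in each set, by 0.05 in the narrower and 0.36 in the wider. Rrp12, which takes part in export and maturation of the subunits, read 6.24, 6.36, 6.54 and 6.53 against 6.36, 6.36 and 6.16, and the step between sets was small there. Wdr43 and Noc4l, both of the processome, differed by -0.07 ± 0.32 and -0.06 ± 0.36.

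Large subunit assembly held both the member of lowest p in each direction. Of 9 members 8 had lower means and 1 a higher one. Pes1 (gene ID 64934), which with Bop1 forms the core of the PeBoW complex that processes large subunit RNA, read 7.94, 7.99, 8.76 and 8.66 on the WT arrays and 8.29, 7.47 and 8.19 on the deficient ones. Its wider deficient arrays lay between the narrower and the wider WT arrays, and its narrower deficient array lay below all others. The difference was -0.35 ± 0.30 (SE), a level of 0.783 of WT, and -0.48 ± 0.08 with the block (limma adjusted p = 0.275). It was -0.47 within the wider and -0.49 within the narrower set, and with the block it lay between -0.51 and -0.46 when each array was left out in turn. Without the block that range was -0.51 to -0.096, with -0.096 found without RRas2-deficient replicate 2, -0.21 without WT replicate 3 and -0.24 without WT replicate 4.

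Bop1 itself differed by -0.23 ± 0.25, and by -0.33 ± 0.12 with the block. Pa2g4, a ribosome-binding growth regulator, had a blocked difference of -0.57 ± 0.15 (limma adjusted p = 0.341). The RNA methyltransferase gene Nop2 had one of -0.40 ± 0.19. Nop16 differed between sets in its genotype difference, at -0.58 in the wider and 0.16 in the narrower set, a contrast that was not tested. Gnl3, a nucleolar GTPase, differed by -0.20, the helicase gene Ddx18 by -0.04 and Wdr74 by -0.15, and with the block the 3 lay between -0.28 and -0.19.

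Rrs1 (gene ID 59014), which brings the 5S ribonucleoprotein into the large subunit, had the largest difference of any member in the higher direction. It read 5.84, 5.92, 6.25 and 6.31 on WT replicates 1 to 4 and 6.55, 6.31 and 6.72 on RRas2-deficient replicates 1 to 3. The highest WT array and the lowest deficient array had the same value, so the genotypes touched. The means were 6.08 ± 0.24 (SD, n = 4) and 6.53 ± 0.21 (SD, n = 3), a difference of 0.45 ± 0.16 (SE) or 1.37-fold, with an unadjusted limma p of 0.0283 and an adjusted p of 1.00. With the block it was 0.39 ± 0.08 (limma adjusted p = 0.296), and leaving out each array gave 0.35 to 0.56 without the block and 0.35 to 0.44 with it. A dimmer probe of Rrs1 differed by 0.02.

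**Figure D4:**
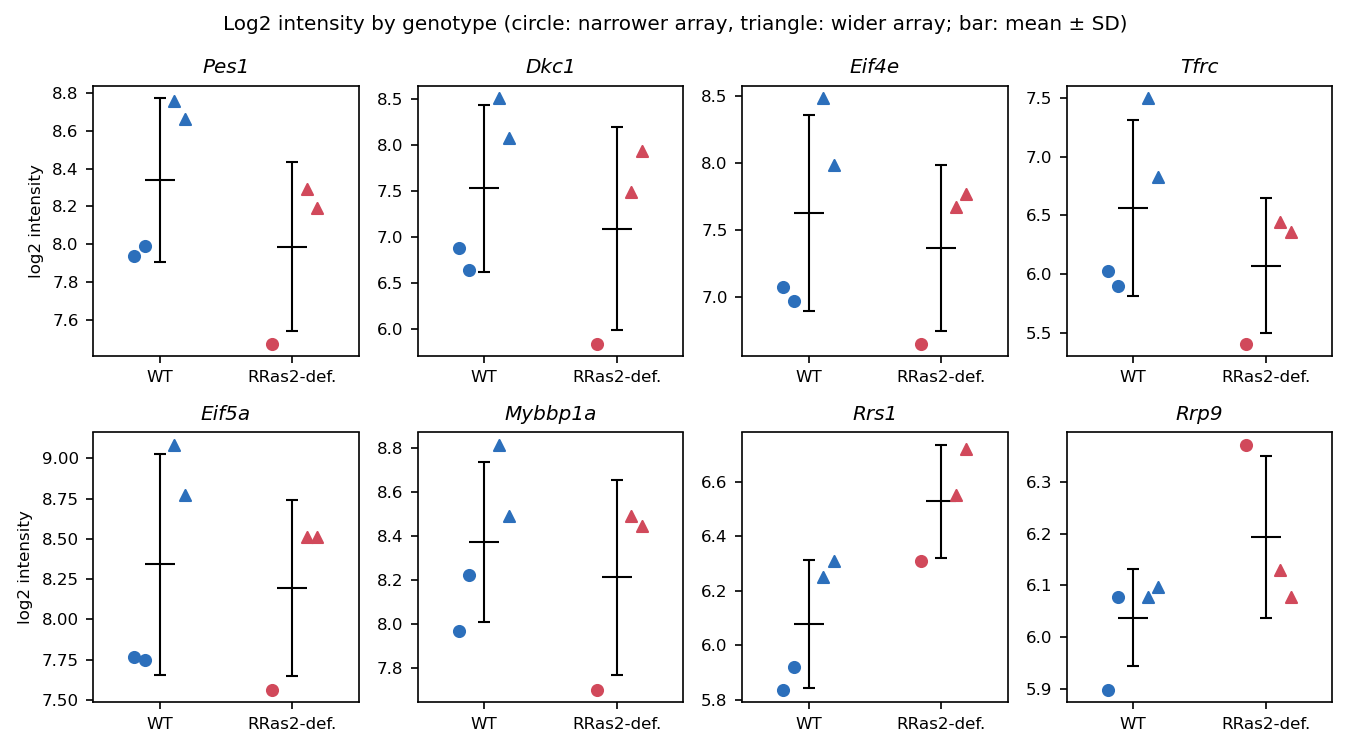
Log2 intensity (y axis, a scale for each gene) of 8 members on each array by genotype, with circles for narrower and triangles for wider arrays and bars for the mean ± SD of 4 WT or 3 deficient arrays. In Pes1, Dkc1, Eif4e, Tfrc, Eif5a and Mybbp1a the deficient arrays lie below the WT arrays of the same set, in Rrs1 they lie above them, and in Rrp9 the highest array is the narrower deficient one.

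Both members of nuclear transport had overlapping genotypes. Ran, the GTPase that gives transport its direction, including the export of pre-ribosomes, read 6.05, 6.65, 6.94 and 6.75 on the WT arrays and 7.06, 6.37 and 6.60 on the deficient ones. Rcc1, the exchange factor that charges Ran with GTP, read 7.05, 6.81, 7.64 and 7.21 against 7.24, 7.02 and 7.21. The differences were 0.08 ± 0.25 and -0.02 ± 0.19.

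Polyamine synthesis and EIF5A belong together, since the polyamine spermidine is the source of the hypusine that activates EIF5A. Odc1, the first enzyme of polyamine synthesis, read 8.31, 8.61, 8.17 and 8.15 on the WT arrays and 8.12, 8.62 and 8.52 on the deficient ones. Its step between sets was negative in both genotypes, at -0.30 in WT and -0.29 in deficient cells, as it was in no other member but Eif4a1, and its genotype difference was 0.11 ± 0.17. Srm, or spermidine synthase, differed by -0.15 ± 0.27. Eif5a read 7.76, 7.75, 9.08 and 8.77 on the WT arrays and 8.51, 7.56 and 8.51 on the deficient ones, below the WT arrays in each set. It differed by -0.15 ± 0.42, and by -0.33 ± 0.10 with the block (limma adjusted p = 0.396).

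All 3 tested initiation factors had lower means. Eif4e (gene ID 13684), which binds the cap of messenger RNA, read 7.07, 6.96, 8.48 and 7.98 on the WT arrays and 7.67, 6.65 and 7.77 on the deficient ones. The deficient arrays were below the WT arrays of their set, by 0.51 in the wider and 0.37 in the narrower. The difference was -0.26 ± 0.46 (SE), and -0.45 ± 0.13 with the block (limma adjusted p = 0.367). Eif3b, a scaffold subunit of EIF3, differed by -0.25 ± 0.43, and by -0.42 ± 0.18 with the block.

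Eif4a1 (gene ID 13681), the helicase that unwinds leader sequences for the ribosome, ran against the other members. It read 12.93, 13.05, 12.34 and 12.07 on the WT arrays and 12.26, 13.07 and 10.95 on the deficient ones, so all 3 narrower arrays were above all 4 wider ones, which held for 13.6% of all tested genes. Its difference of -0.50 ± 0.51 rested on RRas2-deficient replicate 3, and it was 0.07 without that array. The dimmer Eif4a1 probe read 6.44, 6.84, 7.25 and 6.91 on the WT arrays and 6.84, 6.35 and 6.84 on the deficient ones, a difference of -0.19. Its mean on the wider arrays minus that on the narrower was 0.42, where the brighter probe gave -1.12. Without Eif4a1 the other members counted 29 of 33 lower.

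Tfrc (gene ID 22042), the transferrin receptor that brings iron into growing cells, read 6.03, 5.90, 7.50 and 6.83 on the WT arrays and 6.45, 5.41 and 6.36 on the deficient ones. Its wider deficient arrays lay between the WT sets, as with Pes1, and the narrower deficient array was the lowest. The difference was -0.49 ± 0.45 (SE), a level of 0.712 of WT, and -0.68 ± 0.16 with the block (limma adjusted p = 0.329). The difference was -0.76 within the wider and -0.55 within the narrower set. Without the block it was -0.16 without RRas2-deficient replicate 2 and -0.18 without WT replicate 3, and with the block it lay between -0.82 and -0.49 when each array was left out in turn.

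The other genes of the same pathways, 170 tested of 189 listed, also had mostly lower means in the deficient cells. Of them 118 (69.4%) had lower means, against 48.3% of all tested genes, the median was -0.06, and 0 passed by limma, with 0 at an unadjusted p under 0.05. With the block 145 (85.3%) were lower, against 50.9% of all tested genes, with a median of -0.17. In that fit 0 passed by limma and 30 (17.6%) had an unadjusted p under 0.05, against 10.1% of all tested genes, and all 30 were lower. With the interquartile range covariate 89 of 170 were lower, against 45.3% of all tested genes, and the median was -0.01.

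By role, lower means without the block were found for 14 of 16 other RNA polymerase I genes, 3 of 9 snoRNP genes, 27 of 38 small subunit genes and 31 of 40 large subunit genes. They were also found for 12 of 19 exosome and RNase MRP genes, 4 of 5 of nuclear transport, 5 of 7 of polyamines and EIF5A, and 22 of 36 initiation genes. With the block the small subunit genes counted 35 of 38 lower, with a median of -0.20, and the initiation genes 29 of 36, with a median of -0.16. The interquartile range covariate gave 23 of 38 and a median of -0.04 for the small subunit genes. It turned the direction of the initiation genes, of which 12 of 36 were lower with a median of 0.04. The nuclear transport genes turned too, with 2 of 5 lower and a median of 0.03. Of the snoRNP genes 6 of 9 were lower with the block (median -0.05) and 2 of 9 with the covariate (0.09).

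The pathway genes of lowest unadjusted p gave a mixed picture, and none passed (limma adjusted p = 1.00 for each). Lsg1, a GTPase that finishes the large subunit in the cytosol, read 7.04, 7.16, 7.27 and 7.04 on the WT arrays and 6.96, 6.96 and 6.85 on the deficient ones. It differed by -0.21 ± 0.09, and its genotypes did not overlap, as held with lower deficient arrays for 0.366% of all tested genes. How many of the other pathway genes did so was not counted. Las1l, of large subunit processing, differed by -0.42 ± 0.26, and by -0.51 ± 0.13 with the block. Nol6 and Ddx10, of the small subunit, differed by -0.36 ± 0.28 and -0.28 ± 0.27, and the snoRNP assembly factor gene Shq1 by -0.27 ± 0.23. Polr2l, a subunit shared by the RNA polymerases, differed by -0.22 ± 0.10, Rpp38 of RNase MRP by -0.15 ± 0.11, and the polyamine genes Sat1 and Oaz2 by -0.29 ± 0.17 and -0.16 ± 0.10.

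Higher means in the deficient cells were seen for Ubtf, the factor that opens ribosomal DNA for transcription (0.21 ± 0.13), and Tcof1, its partner (0.20 ± 0.19). The same held for Ranbp1, a regulator of Ran (0.31 ± 0.32), Pop7 of RNase MRP (0.13 ± 0.11), Eif2s2, a subunit of EIF2 (0.18 ± 0.12), and Eif2ak3, the stress kinase PERK that restrains EIF2 (0.28 ± 0.22). Ranbp2, a nuclear pore protein, differed by -0.16 ± 0.38.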

How the data were processed

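RNA of 7 sorted samples was hybridised to Affymetrix arrays. The deposited log2 intensities were made by the authors with RMA from the oligo package, per the submitters' processing notes, and range from 1.96 to 13.4. Platform annotation gave 22225 of 25349 probes 1 gene symbol, 616 several and 2508 none, and unnamed probes were left out. The brightest probe of a gene was kept (21515 genes), and those averaging below the 25th percentile (3.48) were dropped, which left 16136.

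Genotypes were compared with limma 3.58.1 in R 4.3.3 (lmFit, eBayes, two-sided, Benjamini-Hochberg over all tested genes, threshold 0.05). Arrays were parted into a narrower and a wider set at the widest gap (0.197) in interquartile range, and the set was a block in an alternative fit. Other alternatives were the replicate block, the interquartile range as a covariate, median centring, quantile normalization, other filters, other probe rules and leaving out each array. Values are given per array for the member of lowest p in each role in either fit. The 2 other pathway genes of lowest p per list are given by their differences, with array values for Lsg1 only. The fit without a block was tested on simulated data, with noise independent between genes and no sets of arrays. The block and covariate fits were not tested that way. The members and lists were chosen with earlier results of these data known. Arrays give no counts, and their number limits the precision. Levels of different probes are not compared.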

Additional observations from a re-analysis of the deposited data

Results flagged for a closer look

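Among the 4 WT arrays, Rrp9 had 1 array far from the others: WT replicate 1 read 5.90, and its gap to the next array was 0.907 of the whole range, above Dixon's critical value for 4 samples. The other 3 WT arrays read 6.08 to 6.10. All 34 members were looked at, and chance alone gives such a gap in about 1 in 20 groups. The 3 deficient arrays were too few for this rule.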

How the results depend on the processing

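No member passed an adjusted p of 0.05 in limma under any alternative run. The genes past it were 2 of 16136, 1 with arrays centred on their medians, 0 with the replicate block, 0 to 2 with an array left out, and 1 with most arrays left out beside the set block. The replicate block, in which WT replicate 4 has no partner and carries no weight, gave 26 of 34 members lower and a median of -0.11, and the deviations of same-numbered arrays correlated at r = -0.59, 0.78 and 0.66 for replicates 1, 2 and 3. Not every pair deviated together, so the numbers were not taken to pair the arrays. Directions turned for Ddx18 (0.035), Ddx21 (0.061), Noc4l (0.0090) and Rcc1 (0.012) with the interquartile range as a covariate. They turned for Ddx18 (0.056), Ddx21 (0.041), Nhp2 (0.041) and Utp20 (0.023) with the replicate block. Quantile normalization gave 0.016 for both Ddx21 and Rcc1. For Oaz2 the mean over its probes gave 0.12 and its dimmest probe, an alternative chosen after seeing the data, 0.39. With the set block, signs turned for Ran without RRas2-deficient replicate 1 (-0.11) or 2 (-0.014) and without WT replicate 1 (-0.10) or 4 (-0.043), for Pop7 without RRas2-deficient replicate 2 (-0.0024), for Eif4a1 without RRas2-deficient replicate 3 (0.071), and for Noc4l (0.010) and Rcc1 (0.054) without WT replicate 3. The causes were not tested. With each array left out and no block, members with a lower mean numbered 12 to 31 and the median lay between -0.28 and 0.07. Ranges that crossed 0 were -0.26 to 0.23 (Ddx18), -0.29 to 0.32 (Ddx21), -0.86 to 0.19 (Dkc1), -0.49 to 0.15 (Eif3b), -0.99 to 0.071 (Eif4a1), -0.48 to 0.095 (Eif4e), -0.35 to 0.17 (Eif5a), -0.30 to 0.093 (Mybbp1a), -0.50 to 0.23 (Ncl), -0.14 to 0.12 (Nhp2) and -0.27 to 0.21 (Noc4l). They were -0.29 to 0.071 (Nolc1), -0.52 to 0.24 (Nop58), -0.22 to 0.060 (Npm1), -0.62 to 0.17 (Pa2g4), -0.11 to 0.24 (Ran), -0.49 to 0.21 (Ranbp2) and -0.14 to 0.13 (Rcc1). They were also -0.28 to 0.085 (Srm), -0.26 to 0.12 (Utp20), -0.35 to 0.26 (Wdr43) and -0.34 to 0.038 (Wdr74). Another background correction was not run, since scanner files were not used here.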

Other observations

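Several probes of 1 member did not always read alike. The brightest Nop56 probe was higher on the wider arrays, while a second read 6.95, 7.68, 5.68 and 5.56 on WT replicates 1 to 4 and 6.19, 7.15 and 5.02 on RRas2-deficient replicates 1 to 3, a mean on the wider minus the narrower arrays of -1.65. For the dimmest Nop56 probe that value was -0.86. With Eif4a1 it was the brightest probe that was lower on the wider arrays and the dimmer one that was higher. Both genes are known to carry small nucleolar RNAs in their introns. The sources used here do not place these probes within their genes.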
